A study of Mus musculus with 6 samples.

Results

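Glycolysis turns glucose into pyruvate in the cytosol, and the genes described here cover its entry and most of its steps: Slc2a1, which encodes the glucose transporter GLUT1, the hexokinases Hk1 and Hk2, and the enzymes Pfkl, Aldoa, Tpi1, Pgk1, Eno1, Pkm and Ldha. These 10 genes were taken by symbol from a table of 19423 genes. All 10 passed the filter on low counts and were among the 15787 genes tested. The samples were ovaries of female balb/c-nude mice, an athymic strain that tolerates human tumor cells, all labelled day 80. The Tumor group comprised 3 samples from mice that carried a breast tumor from subcutaneously injected cells, which the labels call MBA-MD-231, although the treatment labels of replicates 2 and 3 end in other numbers. The Control group comprised 3 samples of the same strain and day, for which the labels give no injection or treatment. The ovary, and not the tumor, was sequenced, and the age of the mice was not given in the sources used here.

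Glucose enters cells through facilitative transporters and is trapped by hexokinase as glucose 6-phosphate. Phosphofructokinase then commits it to glycolysis, aldolase splits the sugar, and the lower enzymes yield ATP and pyruvate, which lactate dehydrogenase can reduce to lactate. In the ovarian follicle this pathway is known mainly from granulosa and cumulus cells, since the mouse oocyte uses glucose poorly and takes up pyruvate made by the cells around it.

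The libraries held between 18278614 and 18482073 estimated counts in the Tumor group and between 18804610 and 19238900 in the Control group. The first principal component, with 52.1% of the variance, placed Tumor replicate 1 at -34.6, beside the Control libraries at -42.8 to -5.23, and the other Tumor libraries at 49.6 and 75.1. Ovarian markers were present in every library: the summed level of 9 granulosa markers was between 3712 and 6200 TPM (a deposited level per gene length and library size) in Tumor and between 4477 and 5454 TPM in Control ovaries. Among these granulosa markers edgeR called 1 higher and 0 lower, 3 had an unadjusted p under 0.05 and DESeq2 called 2. Of 10 oocyte markers, 6 were called higher, with sums of 773 to 995 TPM in Tumor and 433 to 592 TPM in Control ovaries. Of 7 luteal markers, 4 were called lower, with sums of 117 to 195 TPM in Tumor and 831 to 2329 TPM in Control ovaries. The 6 theca and steroidogenic markers summed to 3468 to 12907 TPM in Tumor and 15324 to 17908 TPM in Control ovaries, without overlap; 0 of them were called by edgeR, 1 had an unadjusted p under 0.05 and DESeq2 called 1. Matrix and smooth muscle lists had 2 of 5 and 3 of 5 markers called lower, with sums of 1584 to 1938 TPM and 1240 to 1968 TPM in Tumor, against 2246 to 2625 TPM and 2220 to 2424 TPM in Control ovaries. The 10 adipocyte markers summed to 20537, 1780 and 7926 TPM in Tumor replicates 1 to 3, against 1149 to 1651 TPM in Control ovaries. Of these adipocyte markers 0 were called in either direction by edgeR, 8 had an unadjusted p under 0.05 and DESeq2 called 7. Beside these marker counts, edgeR called 3.91% of all tested genes lower and 3.8% higher, and 31% had an unadjusted p under 0.05. DESeq2 called 3029 of 19334 genes. Oviduct markers summed to 2253, 231 and 114 TPM in Tumor replicates 1 to 3. In Control replicates 1 to 3 they summed to 1857, 2176 and 492 TPM. None of these markers was at 0 in all libraries, and the part of cell composition in the results below was not tested. In bulk tissue, fewer cells of a type and less RNA per cell cannot be told apart.

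Levels per gene length ran from Aldoa, at 1251 ± 143 TPM in Tumor and 1463 ± 137 TPM in Control ovaries (SD, n = 3 each), down to Hk2, at 14.5 ± 1.36 TPM in Tumor and 10.8 ± 0.668 TPM in Control ovaries. In Control ovaries the order below Aldoa was Pkm, Eno1, Ldha, Tpi1, Pgk1, Pfkl, Hk1, Slc2a1 and Hk2. Of the neighbours in that order, Ldha with Tpi1 and Hk1 with Slc2a1 overlapped between libraries, and each other gene was above the next in all 3. In Tumor ovaries Ldha, at 439 ± 85.9 TPM, averaged above Eno1, at 401 ± 16.5 TPM, and its libraries overlapped those of both Pkm and Eno1. Hk1 and Slc2a1 overlapped in Tumor ovaries too, and the order otherwise matched that of the Control ovaries. The 10 genes together summed to 3524, 3012 and 3233 TPM in the Tumor ovaries, against 4356, 3558 and 4113 TPM in the Control ovaries. These sums did not overlap, and the highest Tumor library, replicate 1, lay just under the lowest Control library, replicate 2.

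Between the groups, 9 of the 10 genes had a negative log2 fold change of Tumor over Control, and 2 of them, Hk1 and Eno1, passed the test. By the fitted fold changes, Hk1 fell by 30.6% and Eno1 fell by 31.9%. None rose, by edgeR or by DESeq2, and Hk2 was the 1 gene with a positive fold change. At an unadjusted p under 0.05 there were 7 of the 10 genes, 6 lower and Hk2 higher, where 31% of all tested genes were in either direction and 15.2% lower. The test was edgeR's quasi-likelihood test on estimated counts, with Benjamini-Hochberg adjustment over all tested genes at 0.05. Across all tested genes 3.91% were called lower, 3.8% higher and 7.71% in either direction. The median log2 fold change of the 10 genes was -0.53, beside -0.02 over all tested genes, of which 8133 of 15787 had a negative one. The 3 Tumor libraries lay below the 3 Control libraries without overlap for 6 of the 10 genes and above them for 1. Of all tested genes 38.1% did not overlap, 18.4% on the lower and 19.8% on the higher side. The p-values measure the spread between these samples, since nothing in the labels says which animals or litters they came from.

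**Figure D1:**
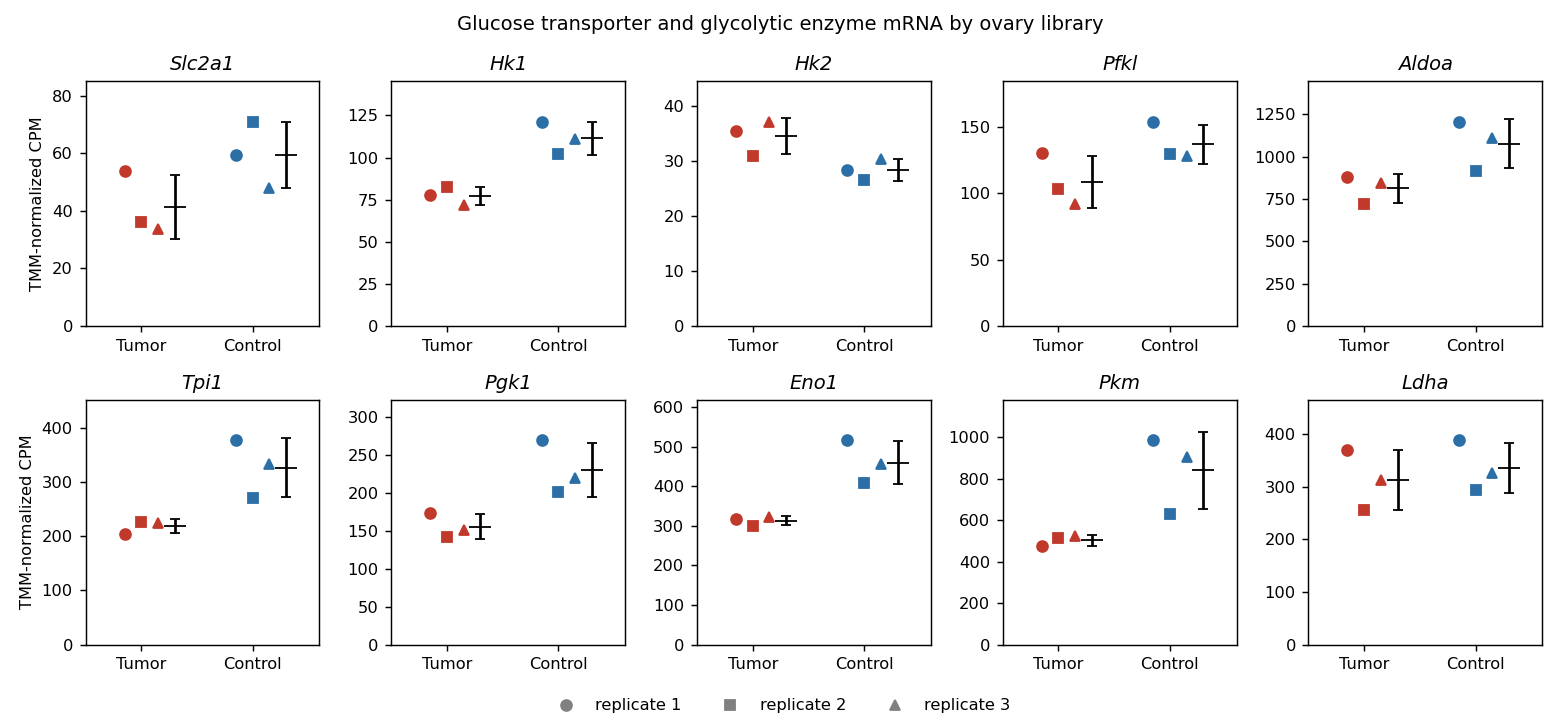
Level of each of the 10 genes in every library, as CPM (counts scaled to library size with TMM factors) on a linear axis from 0, with Tumor left of Control. Symbols are single libraries, and the bar beside them is the group mean ± SD (n = 3). The groups are apart for Hk1, Hk2, Aldoa, Tpi1, Pgk1, Eno1 and Pkm and overlap for Slc2a1, Pfkl and Ldha.

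Slc2a1 (chr4:119108745-119138802, GRCm38.p6) encodes GLUT1, the transporter that supplies most cells with basal glucose. Its level was 53.9, 36.2 and 33.7 CPM (counts scaled to library size with TMM factors) in the Tumor ovaries, against 59.5, 70.9 and 47.9 CPM in the Control ovaries. Tumor replicate 1 lay inside the Control range, and the other Tumor libraries lay below it. The log2 fold change was -0.53 ± 0.23 (SE), which did not pass edgeR's test (adjusted p = 0.172). Without Tumor replicate 1 it was -0.76 and passed (adjusted p = 0.0422), and without Control replicate 2 it was -0.33 (adjusted p = 0.421).

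Hk1 and Hk2 catalyse the same first step, and their fold changes had opposite signs. Hk1 (chr10:62268855-62379920) is the broadly expressed hexokinase that sits on the outer mitochondrial membrane, and it fell. Its level was 77.6, 82.3 and 71.8 CPM in the Tumor ovaries, against 121, 102 and 111 CPM in the Control ovaries, which averages to 77.3 ± 5.26 CPM in Tumor and 111 ± 9.67 CPM in Control (SD, n = 3 each). Every Tumor library was below every Control library, with a log2 fold change of -0.53 ± 0.10 and an adjusted p of 0.0386 by edgeR. Hk2 (chr6:82725025-82774454), the inducible hexokinase of muscle and fat, stood at 35.5, 30.8 and 37.1 CPM in the Tumor ovaries, against 28.3, 26.4 and 30.4 CPM in the Control ovaries. All 3 Tumor libraries were above the Control libraries, by a narrow margin for Tumor replicate 2. The log2 fold change of Hk2 was 0.28 ± 0.11 and did not pass (adjusted p = 0.15 by edgeR), and it shrank to 0.08 when the fit was corrected for gene length.

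Pfkl (chr10:77986947-78009807) encodes the liver-type subunit of phosphofructokinase, the enzyme of the committed step. It had 130.1, 103 and 92.1 CPM in the Tumor ovaries, against 154, 129 and 128 CPM in the Control ovaries, and Tumor replicate 1 was above the lowest Control libraries. Its log2 fold change was -0.34 ± 0.15 (adjusted p = 0.186 by edgeR). Without Tumor replicate 1 it was -0.49 and passed (adjusted p = 0.0449), and without Control replicate 1 it was -0.22 (adjusted p = 0.534).

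Aldoa (chr7:126795234-126809108), the aldolase that splits fructose 1,6-bisphosphate, was the most abundant of the 10. It had 882, 719 and 842 CPM in the Tumor ovaries, against 1206, 918 and 1111 CPM in the Control ovaries. The groups did not overlap, with Control replicate 2 close to Tumor replicate 1. The log2 fold change of -0.40 ± 0.14 did not pass (adjusted p = 0.116 by edgeR), and it was -0.09 once gene length and GC content were both corrected for. Tpi1 (chr6:124810592-124814296), which interconverts the products of aldolase, had 204, 226 and 225 CPM in the Tumor ovaries, against 377, 269 and 333 CPM in the Control ovaries. All Tumor libraries were below the lowest Control library, replicate 2, and the log2 fold change of -0.58 ± 0.14 just missed the threshold (adjusted p = 0.0545 by edgeR).

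Of the lower steps, Eno1 passed the test, and Pgk1 and Pkm came close to it. Pgk1 (chrX:106187100-106203699) encodes phosphoglycerate kinase, the first ATP-producing enzyme. It had 174, 141 and 151 CPM in the Tumor ovaries, against 269, 200.3 and 219.5 CPM in the Control ovaries. No Tumor library reached the Control range, and the log2 fold change was -0.56 ± 0.14 (adjusted p = 0.0593 by edgeR). Eno1 (chr4:150236692-150248873) encodes enolase, which forms phosphoenolpyruvate. It fell to 317, 299 and 323 CPM in the Tumor ovaries, against 516, 408 and 456 CPM in the Control ovaries, averaging 313 ± 12.4 CPM in Tumor and 459.8 ± 54.0 CPM in Control (SD, n = 3 each). The groups stood well apart, with a log2 fold change of -0.55 ± 0.11 and an adjusted p of 0.0421 by edgeR. Eno1b is a near-identical copy listed as a gene of its own, so the split of reads between them is uncertain. With their counts summed, the log2 fold change was -0.53 and still passed (adjusted p = 0.0497).

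Pkm (chr9:59656368-59679375) encodes the muscle-type pyruvate kinase, which makes pyruvate and ATP in the last step, and it had the lowest log2 fold change of the 10. Its level was 473, 514 and 521 CPM in the Tumor ovaries, against 985, 628 and 907 CPM in the Control ovaries. The Tumor libraries lay close together and below all Control libraries, of which replicate 2 was far under the other two. The log2 fold change was -0.74 ± 0.18 (adjusted p = 0.0555 by edgeR), and without Control replicate 2 it was -0.87 and passed (adjusted p = 0.0201).

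Ldha (chr7:46842274-46855627) encodes the lactate dehydrogenase subunit that favours lactate formation. Its level was 369.6, 256 and 313 CPM in the Tumor ovaries, against 388, 294 and 327 CPM in the Control ovaries. The groups overlapped, and the log2 fold change was -0.10 ± 0.17 (adjusted p = 0.721 by edgeR). Its sign turned to 0.05 with a gene length correction, to 0.02 without Tumor replicate 2 and to 0.04 without Control replicate 1.

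The calls of Hk1 and Eno1 depended on single libraries, as did the number called over all genes. Both passed without Tumor replicate 1 (adjusted p = 0.0380 for Hk1 and 0.0395 for Eno1, by edgeR) and without Control replicate 2 (0.0305 and 0.0302). Without Tumor replicate 1, Pgk1 passed as well (log2 fold change -0.65, adjusted p = 0.0390), and 9.63% of all genes were called lower. Without Control replicate 2, Tpi1 passed (log2 fold change -0.66, adjusted p = 0.0261), and 6.78% of all genes were called lower. Neither Hk1 nor Eno1 passed without Tumor replicate 2 (0.0921 and 0.120), Tumor replicate 3 (0.125 and 0.128), Control replicate 1 (0.148 and 0.152) or Control replicate 3 (0.130 and 0.140). Their log2 fold changes stayed between -0.58 and -0.44 for Hk1 and between -0.59 and -0.44 for Eno1 over these 6 fits. In the 4 fits without a call of Hk1 or Eno1, between 0 and 5 of all tested genes were called, where 3137 to 3961 had an unadjusted p under 0.05. The marker covariates used next were the mean log2 CPM of each marker list, not its summed TPM. With the adipocyte covariate neither Hk1 nor Eno1 passed, at -0.44 for Hk1 (adjusted p = 0.268 by edgeR) and -0.58 for Eno1 (adjusted p = 0.259). In that fit Slc2a1 was at -0.86, Hk2 at 0.15 and Ldha at -0.40, and none of the 10 passed, with 5 at an unadjusted p under 0.05. The same fit called 0 of all 15787 tested genes, and 2694 had an unadjusted p under 0.05. With oviduct markers as the covariate Slc2a1 was at -0.28 and Pfkl at -0.20, and Hk1, Tpi1, Eno1 and Pkm passed. In that fit 9.73% of all genes were called lower.

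The authors' deposited table, a DESeq2 comparison, listed 6 of the 10 genes at q under 0.05, all lower in Tumor, where it listed 7.3% of all its genes with a q as lower. In the authors' deposited table the log2 fold change was -0.52 for Hk1 (q = 0.00035), -0.54 for Eno1 (q = 0.000106) and -0.73 for Pkm (q = 0.00108). The other three were Tpi1 at -0.57 (q = 0.00222), Pgk1 at -0.55 (q = 0.00397) and Aldoa at -0.39 (q = 0.0419), again from the authors' deposited table. A DESeq2 fit of the deposited counts called the same 6 genes, beside 7.77% of all genes called lower.

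**Figure D2:**
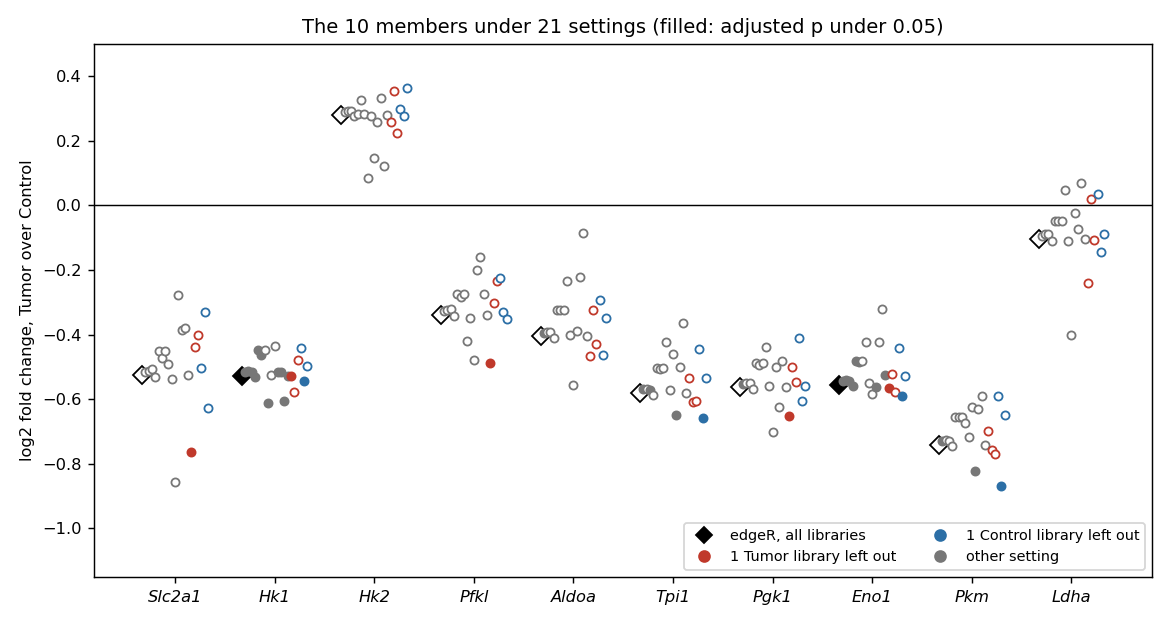
Log2 fold change of Tumor over Control for each of the 10 genes under the fit reported here and the 20 alternatives. Filled symbols passed an adjusted p of 0.05 and open symbols did not. Hk1, Eno1, Slc2a1, Pfkl, Aldoa, Tpi1, Pgk1 and Pkm stay below 0 throughout, Hk2 stays above 0, and Ldha crosses 0.

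The remaining enzymes of the pathway were described from a list of 19 genes, of which 16 were tested. Of these, 2 fell, 1 rose and 13 did not pass, with a median log2 fold change of -0.22. DESeq2 called 6 lower, adding Gapdh, Gpi1, Pgam1 and Eno1b, and 1 higher. Of all 19334 genes in that fit, DESeq2 called 1503 lower and 1526 higher. These counts stand beside each DESeq2 count in the lists below. Pfkp, the platelet-type phosphofructokinase, fell to 38.7, 36.8 and 38.0 CPM in the Tumor ovaries, against 62.9, 50.2 and 59.3 CPM in the Control ovaries (log2 fold change -0.60 ± 0.11, adjusted p = 0.0385 by edgeR). Eno2, the enolase of neurons and endocrine cells, fell to 12.9, 10.3 and 8.56 CPM in Tumor, against 23.0, 18.3 and 20.3 CPM in Control ovaries (log2 fold change -0.95 ± 0.19, adjusted p = 0.0413 by edgeR). Bpgm, which makes the 2,3-bisphosphoglycerate of red cells, rose to 66.0, 65.4 and 67.1 CPM in Tumor, against 47.3, 50.9 and 52.5 CPM in Control ovaries (log2 fold change 0.40 ± 0.08, adjusted p = 0.0408 by edgeR). For all 3 of these genes the groups did not overlap.

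Gapdh, the step between Tpi1 and Pgk1, had 1243, 1456 and 1588 CPM in the Tumor ovaries, against 3014, 1919 and 2659 CPM in the Control ovaries. The groups did not overlap, and the log2 fold change of -0.82 ± 0.19 narrowly missed the threshold (adjusted p = 0.0535 by edgeR). Gapdh has many processed copies in the mouse genome, so its reads can be split. Pgam1, the mutase before enolase, was at -0.79 ± 0.19 on the log2 scale (adjusted p = 0.0557 by edgeR). Among the genes that share a step with one of the 10, Pfkm was at -0.39 ± 0.15 and Eno1b at -0.46 ± 0.12 on the log2 scale, and neither passed (adjusted p = 0.137 and 0.068 by edgeR). Ldhb, the lactate dehydrogenase subunit of oxidative tissue, was at -0.04 ± 0.10 (adjusted p = 0.833 by edgeR), and its sign turned under several alternatives. Hk3, Aldoc, Eno3, Pklr and Ldhc, which also share a step with one of the 10, did not pass, with log2 fold changes from -0.36 for Aldoc to 0.54 for Ldhc.

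**Figure D3:**
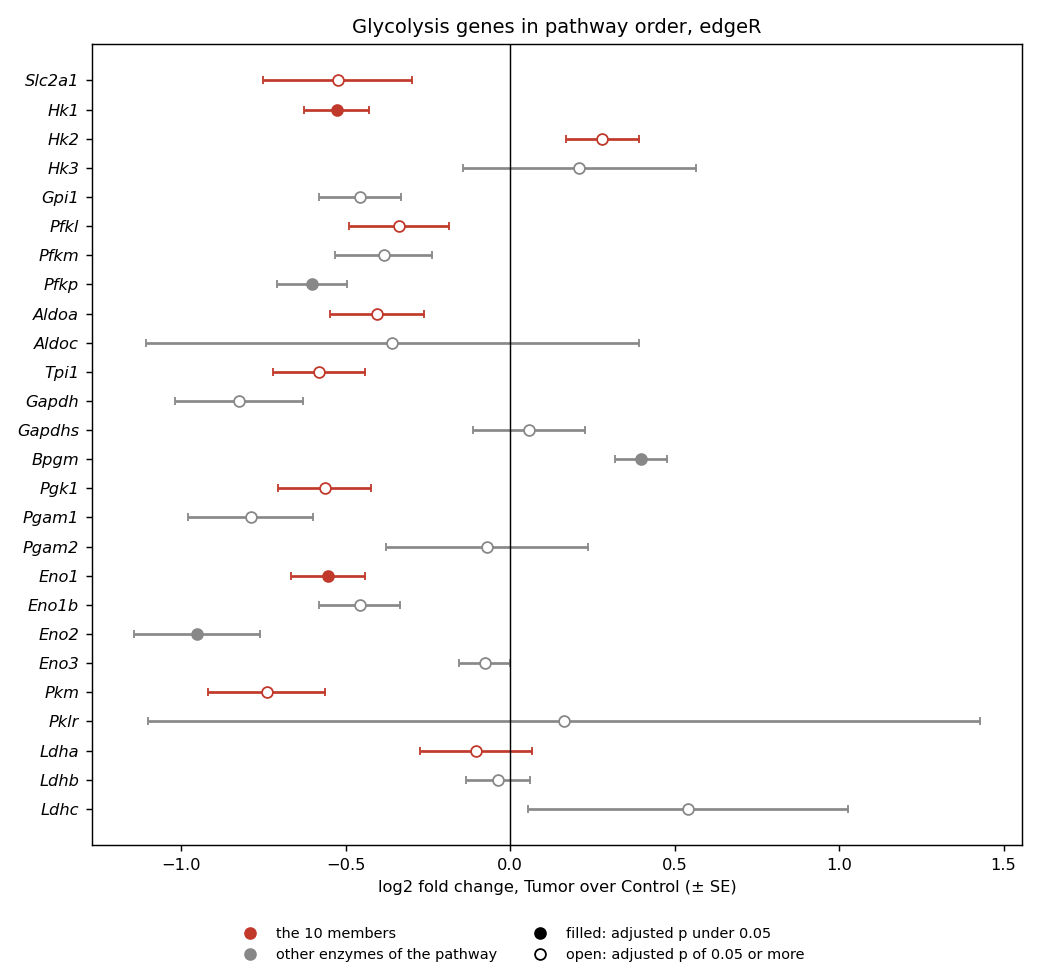
Log2 fold change of Tumor over Control with its standard error for the glycolysis genes tested, in pathway order from transport at the top to lactate dehydrogenase at the bottom. Red marks the 10 genes, grey the other enzymes; filled symbols had an adjusted p under 0.05. Hk1, Pfkp, Eno1 and Eno2 are filled on the lower side and Bpgm on the higher side.

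Of 12 other glucose transporters, 9 were tested and 0 were called by edgeR's test in either direction. None had an unadjusted p under 0.05, and DESeq2 called 0 as well. Slc2a5, the fructose transporter GLUT5, was at 1.01 ± 0.44 on the log2 scale (adjusted p = 0.176 by edgeR). Slc2a8, an intracellular transporter, was at -0.42 ± 0.20 (adjusted p = 0.202 by edgeR). Slc2a4, the insulin-responsive transporter of fat and muscle, had 46.1, 11.9 and 25.4 CPM in the Tumor ovaries, against 15.1, 16.6 and 10.2 CPM in the Control ovaries. Tumor replicates 1 and 3 were high, replicate 2 lay within the Control range, and the log2 fold change was 0.99 ± 0.50 (adjusted p = 0.233 by edgeR). The same Tumor libraries had the highest sums of adipocyte markers, and with these markers as a covariate the log2 fold change turned to -0.38 for Slc2a4 and was 0.0194 for Slc2a5.

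Of 17 genes that handle lactate and pyruvate, 1 rose, 1 fell and 15 did not pass. DESeq2 called 2 higher, adding Pdk1, and 2 lower, adding Slc16a3. Slc16a1, which encodes the lactate and pyruvate carrier MCT1, rose to 67.7, 103 and 93.1 CPM in the Tumor ovaries, against 47.8, 57.9 and 51.1 CPM in the Control ovaries. Bsg, which encodes basigin, the chaperone that brings this carrier to the cell surface, fell to 355, 435 and 402 CPM in Tumor, against 658, 519.8 and 606 CPM in Control ovaries. Neither gene's groups overlapped. The log2 fold change was 0.75 ± 0.17 for Slc16a1 (adjusted p = 0.0499 by edgeR) and -0.58 ± 0.13 for Bsg (adjusted p = 0.049). Slc16a3, the lactate exporter MCT4 of glycolytic cells, had 18.0, 12.6 and 13.1 CPM in Tumor and 31.1, 21.1 and 27.1 CPM in Control ovaries. Its log2 fold change of -0.86 ± 0.21 did not pass (adjusted p = 0.0561 by edgeR). Pdk1, a kinase that shuts pyruvate out of the citrate cycle, was at 0.70 ± 0.25 on the log2 scale (adjusted p = 0.12 by edgeR), and its relative Pdk4 at 0.40 ± 0.15 (adjusted p = 0.122). With adipocyte markers as a covariate Pdk1 was at 0.19.

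Of 16 regulators of glycolysis, 1 rose and 15 did not pass, and 15 had a log2 fold change above 0. Of all 15787 tested genes, 7654 had one above 0. The regulators had a median length of 3537 bases, beside 2841 over all tested genes, and fold changes followed gene length, as given below. Among the regulators DESeq2 called 3 higher, Mlxip, Pfkfb1 and Pfkfb3, where it called 1526 of all 19334 genes higher. Mlxip, a glucose-sensing transcription factor, rose by 0.40 ± 0.09 on the log2 scale (adjusted p = 0.0483 by edgeR). With a gene length correction its fold change was 0.13 and did not pass. Pfkfb1, Pfkfb2 and Pfkfb3, which make the activator of phosphofructokinase, were at 1.27 ± 0.42, 0.24 ± 0.08 and 0.98 ± 0.42 (adjusted p = 0.099, 0.111 and 0.176 by edgeR). Epas1, which encodes HIF-2 alpha, was at 0.46 ± 0.18 (adjusted p = 0.146 by edgeR), and without Control replicate 2 it was at 0.70 and passed (adjusted p = 0.0293). With adipocyte markers as a covariate, Pfkfb1 was at 0.14 and Pfkfb3 turned to -0.23.

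Of 14 targets of the hypoxia response, 2 fell and 12 did not pass, with a median log2 fold change of 0.08. DESeq2 called the same 2 lower and Pfkfb3, which this list shares with the regulators, higher. P4ha2, a collagen prolyl hydroxylase, fell to 6.55, 6.77 and 9.43 CPM in the Tumor ovaries, against 19.6, 20.2 and 17.8 CPM in the Control ovaries (log2 fold change -1.34 ± 0.19, adjusted p = 0.0325 by edgeR). Ddit4, a stress-induced inhibitor of mTORC1, fell to 30.1, 31.7 and 25.1 CPM in Tumor, against 66.6, 47.2 and 65.0 CPM in Control ovaries (log2 fold change -1.04 ± 0.17, adjusted p = 0.0355 by edgeR). The groups did not overlap for either gene. Bnip3l, a mitophagy receptor, was at 0.19 ± 0.10 and Vegfa, the endothelial growth factor, at 0.23 ± 0.19 on the log2 scale (adjusted p = 0.242 and 0.441 by edgeR).

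Among 7 genes of the pentose phosphate pathway, which branches off at glucose 6-phosphate, 1 rose and 6 did not pass. Rpia, which isomerises ribose 5-phosphate, rose by 0.45 ± 0.08 on the log2 scale (adjusted p = 0.0386 by edgeR). Taldo1, Pgls, G6pdx and Tkt, further enzymes of this pathway, were at -0.65 ± 0.19, -0.37 ± 0.14, -0.27 ± 0.11 and 0.62 ± 0.28 (adjusted p = 0.0785, 0.139, 0.154 and 0.193 by edgeR). Taldo1 passed with DESeq2 (adjusted p = 0.0107) and without Tumor replicate 1 (0.0485), and Pgls passed without Control replicate 2 (0.0483). Of 6 gluconeogenesis genes tested, 1 fell and 5 did not pass. G6pc3, the broadly expressed glucose 6-phosphatase, fell, with a log2 fold change of -0.56 ± 0.11 (adjusted p = 0.0386 by edgeR). Pck1, which turns oxaloacetate into phosphoenolpyruvate and also serves glyceride synthesis in fat, had 169.8, 14.4 and 116 CPM in the Tumor ovaries, against 10.3, 11.4 and 7.97 CPM in the Control ovaries. It was high in Tumor replicates 1 and 3, the libraries with the highest adipocyte marker sums, and its log2 fold change of 3.34 ± 0.86 did not pass (adjusted p = 0.0678 by edgeR). Pck1 was at 0.52 with adipocyte markers as a covariate, and it passed without Tumor replicate 2 (3.85, adjusted p = 0.0495 by edgeR) and with DESeq2 (adjusted p = 0.00245). Pck2, its mitochondrial counterpart, was at -0.66 ± 0.23 (adjusted p = 0.113 by edgeR), and it passed without Control replicate 2 (-0.83, adjusted p = 0.0261) and with DESeq2 (adjusted p = 0.0377).

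The 10 further genes named as risen or fallen were, like Hk1 and Eno1, called without Tumor replicate 1. Without Control replicate 2, 9 of them were called, Mlxip being the exception. Without any 1 of Tumor replicates 2 and 3 or Control replicates 1 and 3, 0 of the 10 passed edgeR's test, and all 10 had an unadjusted p under 0.05. In these fits 0 to 5 of all tested genes were called, and 3137 to 3961 had an unadjusted p under 0.05. Since the 10 were named for passing the fit of all libraries, fits that share most of these libraries are no separate test. With a gene length correction Pfkp, Bpgm, P4ha2, Ddit4 and Rpia passed and Eno2, Slc16a1, Bsg, Mlxip and G6pc3 did not. With a GC correction Pfkp, Bpgm, P4ha2, Ddit4 and Mlxip passed, and with both corrections Pfkp, Bpgm, P4ha2 and Rpia. Slc16a1 lost its call with RLE size factors (adjusted p = 0.0512 by edgeR), and Slc16a1, Bsg and Mlxip lost theirs without the filter on low counts. With limma on log2(FPKM + 1) without a filter, Pfkp, P4ha2, Ddit4 and Rpia passed. With the adipocyte marker covariate none passed, and 9 had an unadjusted p under 0.05, as had 2694 of all 15787 tested genes. With the replicate block none passed, and all 10 had an unadjusted p under 0.05, as had 4233 of all 15787 tested genes. Both of these fits called 0 of all tested genes.

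Ratios between genes of the same library do not depend on the scaling of libraries. They can still carry the trend with gene length given below, which was not tested for them. The 8 ratios of TPM values given here were chosen after the values were seen, and 5 of them did not overlap between the groups. Of single tested genes 38.1% did not overlap, and no share over other gene pairs is given here. The ratio of Hk2 to Hk1 was 0.332, 0.267 and 0.363 in the Tumor ovaries, against 0.170, 0.184 and 0.196 in the Control ovaries, a log2 difference of 0.80. Every Tumor library was above every Control library. The ratio of Ldha to Pkm was 1.10, 0.701 and 0.855 in Tumor, against 0.556, 0.663 and 0.505 in Control ovaries, with Tumor replicate 2 nearest to the Control range. The ratio of Slc16a1 to Slc16a3 was 2.02, 4.37 and 3.85 in Tumor, against 0.822, 1.45 and 0.997 in Control ovaries. Slc2a4 over Slc2a1 was higher, by a log2 difference of 1.38, and Eno2 over Eno1 was lower, by -0.39, without overlap. Each of these 5 ratios had an exact two-sided permutation p of 0.1, the smallest that 3 against 3 libraries allow, and 0.16 after Benjamini-Hochberg adjustment over the 8. The ratios of Ldhb to Ldha, Pfkp to Pfkl and Pfkm to Pfkl overlapped between the groups (exact permutation p = 0.7, 0.3 and 0.9).

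Pkm is spliced with 1 of 2 mutually exclusive exons: M1, typical of differentiated muscle and brain, and M2, typical of proliferating and many adult tissues. The exons are shown because they are what distinguishes the transcripts compared next. Both lie on the plus strand of chromosome 9, at chr9:59675029-59675195 for M1 and chr9:59675568-59675734 for M2 (GRCm38, GENCODE M21), and are 167 bases long. Capitals mark the 64 positions at which they differ, counted without gaps, which leaves an identity of 61.7%.
M1 exon: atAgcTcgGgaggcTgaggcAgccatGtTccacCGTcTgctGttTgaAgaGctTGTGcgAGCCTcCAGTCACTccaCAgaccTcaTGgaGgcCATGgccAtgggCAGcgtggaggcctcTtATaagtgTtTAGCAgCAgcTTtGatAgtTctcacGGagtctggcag
M2 exon: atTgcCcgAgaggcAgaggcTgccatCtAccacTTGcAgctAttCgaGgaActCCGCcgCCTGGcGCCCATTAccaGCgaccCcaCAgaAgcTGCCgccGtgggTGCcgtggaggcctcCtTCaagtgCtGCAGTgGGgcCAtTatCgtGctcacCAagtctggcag

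The transcript with the M2 exon, NM_011099.3, held 44.6%, 45.4% and 52.3% of the estimated counts of Pkm in the Tumor ovaries, against 48.0%, 48.5% and 39.1% in the Control ovaries. The transcript with the M1 exon, NM_001253883.1, held 12.3%, 7.03% and 8.44% in Tumor, against 7.15%, 9.63% and 10.96% in Control ovaries. The predicted transcript XM_006510856.2, whose exon was not assigned here, held 42.8%, 47.3% and 39.2% in Tumor, against 44.5%, 41.6% and 49.6% in Control ovaries. None of these shares separated the groups. Shares of transcripts are estimates from single reads of 50 bases, most of which fall in sequence that transcripts have in common.

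Across 6 of the 10 genes, 14 transcripts that held at least 5% of their gene were compared. The shares of 2 did not overlap between the groups, both of Aldoa. No such count over the transcripts of all genes is given here to set beside it. The predicted transcript XM_006507210.2 held 25.7%, 19.4% and 22.4% of the counts of Aldoa in the Tumor ovaries, against 11.6%, 8.56% and 16.4% in the Control ovaries. NM_007438.4 held 63.6%, 71.8% and 71.0% in Tumor, against 79.6%, 81.5% and 76.6% in Control ovaries. The differences were 10.3 and -10.4 percentage points, each with an exact two-sided permutation p of 0.1, the smallest possible here, and 0.7 after Benjamini-Hochberg adjustment over the 14. As shares of 1 gene they are not independent of each other.

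**Figure D4:**
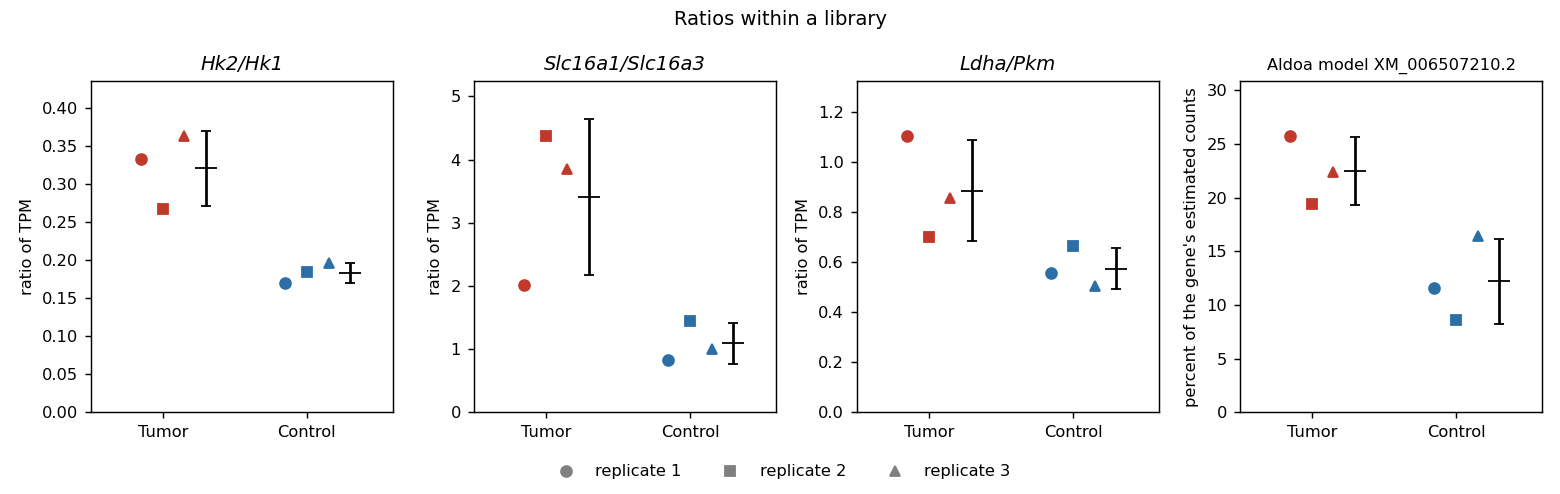
Left, ratios of TPM values between pairs of genes in each library; right, the percentage of Aldoa counts assigned to the predicted transcript XM_006507210.2. Axes are linear from 0, symbols are libraries, the bars give mean ± SD (n = 3), and Tumor is left of Control. Hk2 over Hk1 lies between 0.267 and 0.363 in Tumor and between 0.170 and 0.196 in Control ovaries, and no panel has overlapping groups.

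Several glycolysis genes are textbook targets of the hypoxia-inducible factors. ACGTG is a form of the core that these factors bind, and other forms, such as GCGTG, were not searched. The promoter windows below show how differently the 10 genes carry the letters ACGTG. The windows are the 250 bases before the start site in RefSeq's GRCm38.p6 annotation, and all 10 genes were matched. ACGTG or its reverse complement CACGT was found on 1 of the strands in at least 1 window of 6 genes: Slc2a1, Hk2, Aldoa, Pgk1, Pkm and Ldha. No window of Hk1, Pfkl, Tpi1 or Eno1 held it. Over all 32851 windows of this length 16.6% held it, and 23.6% of the 12502 tested genes with a window did. Hk2 and Pgk1 carried 2 matches and Ldha 5, of which 4 come from 2 copies of CACGTG, which reads as a match on both strands. Matches are in capitals, and the windows are printed in the direction of transcription for chr6:82774455-82774704 (minus strand), chrX:106186850-106187099 (plus strand) and chr7:46845554-46845803 (plus strand).
Hk2 promoter: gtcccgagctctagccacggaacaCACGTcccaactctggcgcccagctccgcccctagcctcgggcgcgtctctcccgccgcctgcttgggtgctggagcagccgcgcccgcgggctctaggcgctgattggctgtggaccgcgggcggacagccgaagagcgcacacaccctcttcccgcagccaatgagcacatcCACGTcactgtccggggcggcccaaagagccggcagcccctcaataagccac
Pgk1 promoter: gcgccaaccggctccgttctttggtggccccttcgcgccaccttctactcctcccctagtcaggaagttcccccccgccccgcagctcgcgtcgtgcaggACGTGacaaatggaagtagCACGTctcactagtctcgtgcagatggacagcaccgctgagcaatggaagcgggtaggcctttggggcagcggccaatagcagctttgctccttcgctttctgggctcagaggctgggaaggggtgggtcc
Ldha promoter: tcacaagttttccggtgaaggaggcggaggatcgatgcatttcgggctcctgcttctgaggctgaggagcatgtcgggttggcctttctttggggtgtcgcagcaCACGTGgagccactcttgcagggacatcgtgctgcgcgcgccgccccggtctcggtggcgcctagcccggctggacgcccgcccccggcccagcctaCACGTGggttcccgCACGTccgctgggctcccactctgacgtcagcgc

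The 6 genes with a match had log2 fold changes from -0.74 for Pkm to 0.28 for Hk2, and Hk1 and Eno1, the genes that passed the test, were among those without one. A match of 5 letters describes the sequence, not binding. Windows without a match can still hold GCGTG, as windows of Hk1, Eno1 and Pfkl did.

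Fold changes followed gene length across all tested genes, with a Spearman correlation of 0.371 across genes, which are not independent replicates. With the genes in 10 classes of equal number by length, the median log2 fold change was -0.32 in the shortest class and 0.30 in the longest. The 10 genes had a median length of 2002 bases, beside 2841 over all tested genes. Hk1, Eno1, Tpi1, Pgk1, Pkm, Aldoa, Slc2a1 and Pfkl lay below the median of their own length class, while Hk2 and Ldha lay above it. Hk1 and Pfkl lie in a class whose median is 0.05, and Hk2 in a class at 0.20. When the fit was corrected for length, Hk1 was at -0.61 and passed (adjusted p = 0.0477 by edgeR), whereas Eno1 was at -0.42 and did not (adjusted p = 0.0711). In that fit 1.36% of all genes were called lower. With a correction for GC content instead, Eno1 did not pass either (adjusted p = 0.0590).

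**Figure D5:**
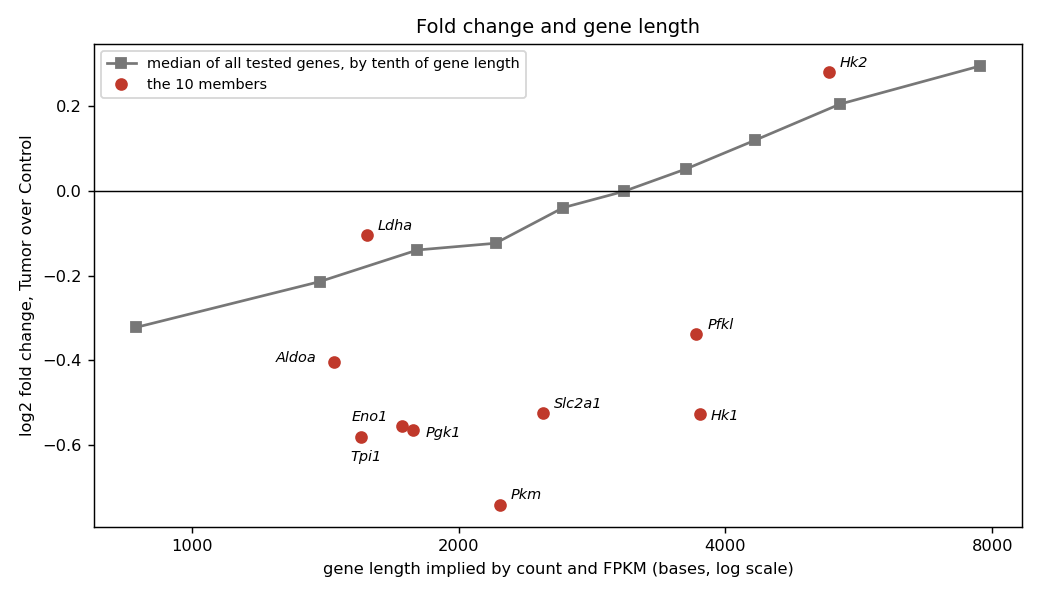
Log2 fold change of Tumor over Control against gene length in bases on a log axis. Squares give the median of all tested genes in each of 10 length classes, from -0.32 in the shortest to 0.30 in the longest, and red points are the 10 genes. Hk1 and Pfkl lie below 0 among genes whose median is 0.05.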

How the data were processed

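Ovary RNA of 3 Tumor and 3 Control samples was sequenced as single reads of 50 bases, per the labels' protocols. The submitters' processing notes name RSEM 1.2.12, Bowtie2 2.2.5, HISAT2 2.0.4 and the build GRCm38.p6, without roles. The authors deposited estimated counts per gene and per transcript, with FPKM and TPM values, per the file headers; 39.2% of the counts above 0 were not whole. The authors' deposited comparison gives q-values, p-values and log2 fold changes from DESeq2, per the file headers; its log2 fold changes had the sign of Tumor over Control for 98.9% of genes. A further 24 columns of values were not used.

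Counts were rounded, filtered with filterByExpr, scaled by TMM (factors 0.962 to 1.054) and compared with edgeR 4.0.16 (R 4.3.3) by the robust quasi-likelihood test with group as its term, with Benjamini-Hochberg adjustment over 15787 genes. CPM values are counts scaled to library size with these factors. DESeq2 1.42.0 and limma 3.58.1 on log2(FPKM + 1) or log2(FPKM + 0.1) served as alternatives. Length and GC corrections were offsets from a natural spline with 5 degrees of freedom per library. Transcript shares and ratios were compared by exact permutation over libraries. Exons and promoter windows were read from GENCODE and RefSeq annotation. No pair of libraries agreed within sampling noise (chi-square per degree of freedom at least 12.6). The tests were tried on simulated data first.

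The genes, lists and tests were chosen with earlier results of these data known. Of each further list, the genes with the smallest p, up to 5, were named in order of p, with the genes that share an enzyme step with one of the 10; Gpi1 is named beyond this rule, for a count, and 1 gene of the enzyme list is not reported here. GC and length with GC corrections, the sum of Eno1 and Eno1b, the ratios and the shares without single libraries were added after the data were seen.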

Additional observations from a re-analysis of the deposited data

How the results depend on the processing

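Over all genes 1217 were called. DESeq2 called 3029, a gene length correction 360, length with GC 326 and an oviduct marker covariate 2624. With the replicate number as a block, edgeR called 0 (4233 at unadjusted p under 0.05), and with an adipocyte marker covariate 0 (2694). Leaving out single libraries gave 0 to 2605. Of the 10 glycolysis genes, 2 were called. DESeq2 called 6, an oviduct covariate 4, corrections for length, GC or both 1 each. The block, the adipocyte covariate and limma on log2(FPKM + 1) without a filter called 0, with 8, 5 and 6 genes at unadjusted p under 0.05. Leaving out single libraries gave 0 to 5. In the paired fit with the replicate block, Hk1 and Eno1 kept their log2 fold changes (-0.53 and -0.55; adjusted p = 0.0997 and 0.0993 by edgeR). Same-numbered Tumor and Control libraries deviated with correlations of 0.24, -0.21 and 0.53, so the numbers were not taken as pairs, and Tumor replicates 1 and 2 each correlated best with another number. The log2 fold change of Ldha turned to 0.0487 (length) and 0.0705 (length and GC), and ranged from -0.241 to 0.0357 without single libraries. Ldhb turned to 0.0278 with limma (0.0279 with the smaller pseudocount, 0.0278 without the filter), 0.16 (length), 0.0119 (adipocyte covariate), 0.0214 (GC) and 0.20 (length and GC), and ranged from -0.0984 to 0.0192 without single libraries. With the adipocyte covariate Slc2a4 was -0.38, Pfkfb3 -0.23 and Tkt -0.15. With length and GC corrected Pfkfb2 was -0.0149 and Pgls 0.159. Of genes not called, Eno3 turned to 0.0132 and 0.0142 with limma (0.0132 without the filter) and 0.0252 (GC), Aldoc to 0.234 (oviduct covariate), and Pklr to -0.246 and -0.824 with limma (-0.246 without the filter), -1.11 (replicate block) and -2.07 (adipocyte covariate). Without single libraries Hk3 ranged from -0.0792 to 0.456, Aldoc ranged from -1.55 to 0.00475 and Pklr ranged from -2.25 to 0.783. The cause of these changes was not tested. Differences in transcript shares (Tumor minus Control, percentage points) without single libraries ranged over 8.49 to 12.4 for Aldoa XM_006507210.2, -11.9 to -7.79 for NM_007438.4, -0.999 to 0.649 for NM_001177307.1, 0.668 to 4.36 for Hk1 NM_001146100.1, -5.85 to 0.0221 for XM_006513246.4, -1.51 to 1.11 for Pkm NM_001253883.1, -0.835 to 3.87 for NM_011099.3 and -4.24 to 0.0431 for XM_006510856.2; from TPM, Pkm NM_001253883.1 gave 0.0340. The median log2 fold change of the 10 genes stayed between -0.53 and -0.34. With 3 libraries a group, and 1 Tumor library apart from the others, a p that misses the threshold does not show that a gene was alike in both groups.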
